A study of Mus musculus with 12 samples.

Results

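The genes described here encode the protein subunits of the mitochondrial ribosome. They were taken as all rows of the deposited table whose symbol starts with Mrpl or Mrps followed by a digit, without pseudogene rows, which gave 76 of 21937 genes. The values come from RNA sequencing of a light membrane fraction, enriched for myelin, of brains of male wild-type (WT) mice of the c57Bl6/N strain. The mice were 18 days (P18), 75 days (P75), 6 months or 24 months old, each age has 3 samples, and no agent or engineered allele was given for any group. The labels do not say whether each sample came from a separate animal, so the p-values concern only how far these samples differ from each other, which may be technical. Values are read counts per gene that the authors divided by a size factor per sample, called normalised read counts below. By symbol 47 members carry the Mrpl prefix and 29 the Mrps prefix. By current structural assignment, given here as background, 49 belong to the large subunit, 26 to the small subunit, and Mrps36 to neither.

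Mitochondria keep a small genome whose protein-coding genes specify core subunits of the respiratory chain and the ATP synthase. These messages are translated inside the organelle by a ribosome of its own, which has a small subunit that decodes the message and a large subunit that joins the amino acids. Its ribosomal RNAs come from the mitochondrial genome, whereas all of its proteins are encoded in the nucleus, made in the cytosol and imported. Many of these proteins have counterparts in bacterial ribosomes, and others were added in the course of mitochondrial evolution. Oligodendrocytes, the cells that make myelin, contain mitochondria in the cell body and processes, and brain membrane fractions also carry RNA of other cells. The mitochondrially encoded genes were not analysed here.

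Because the members are spread over 17 chromosomes, the sequence around their start sites was searched for 3 motifs known from nuclear genes of mitochondrial proteins. These were the NRF1 motif (a pair of GCGC runs with an A and any base between them), the ETS motif CCGGAAG, which the factor Gabpa recognises, and the YY1 motif AAGATGGCG, each on both strands. Promoter sequences (RefSeq, GRCm38.p6, 300 bases from 250 before to 50 after the start site) were matched by symbol for 67 of the 76 members, which have 73 promoters. The NRF1 motif stood in 16.4% of the member promoters, in 8.56% of those of the other tested genes and in 4.60% of all 32851 promoters. The ETS motif stood in 32.9%, 14.5% and 8.86%, and the YY1 motif in 11.0%, 2.45% and 1.40%, respectively. For comparison, the letters TATAAA stood in 6.85%, 7.70% and 13.6%. Of the 67 members, 39 held at least 1 of the 3 motifs and 5 held more than 1 of them. The stretches from 175 to 26 bases before the start site are printed for 5 members, in lower case with motif matches in capitals, to show each kind of match. Mrps21, the member with the largest fall below, and Mrpl12, which binds the mitochondrial RNA polymerase, have an NRF1 match, and Mrpl45, the membrane anchor of the ribosome, has a pair of them within this stretch. Mrpl27 has an ETS match and Mrps11, shown after its match was seen, has a YY1 match 108 bases before the start site. The YY1 matches of Mrpl35, Mrpl37, Mrpl42, Mrps18a, Mrps24 and Mrps27 lay 11 to 36 bases after the start site. That of Mrpl36 lay 31 bases before the start site.
Mrps21 (chr3:95871540-95871689, minus strand): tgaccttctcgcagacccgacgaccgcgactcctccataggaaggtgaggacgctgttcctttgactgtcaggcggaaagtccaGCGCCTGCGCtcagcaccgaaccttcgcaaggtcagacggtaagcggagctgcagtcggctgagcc
Mrpl12 (chr11:120484462-120484611, plus strand): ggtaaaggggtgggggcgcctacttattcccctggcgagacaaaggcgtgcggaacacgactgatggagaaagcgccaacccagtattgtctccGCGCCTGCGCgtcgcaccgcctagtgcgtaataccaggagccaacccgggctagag
Mrpl45 (chr11:97315541-97315690, plus strand): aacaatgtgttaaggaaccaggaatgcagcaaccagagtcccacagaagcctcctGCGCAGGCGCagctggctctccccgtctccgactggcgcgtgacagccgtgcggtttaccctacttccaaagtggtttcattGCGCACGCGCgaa
Mrpl27 (chr11:94653616-94653765, plus strand): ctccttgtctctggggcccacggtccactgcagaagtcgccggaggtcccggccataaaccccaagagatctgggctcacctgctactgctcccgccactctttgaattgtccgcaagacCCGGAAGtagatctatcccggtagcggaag
Mrps11 (chr7:78782956-78783105, plus strand): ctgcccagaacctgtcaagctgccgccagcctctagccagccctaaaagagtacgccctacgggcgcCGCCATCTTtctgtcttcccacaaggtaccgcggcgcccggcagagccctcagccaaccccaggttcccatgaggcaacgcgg
A match is a run of letters and does not show that a factor binds there. From P75 to 6 months the median log2 fold change was -0.61 for the 12 members with an NRF1 match and -0.54 for the 55 without one. It was -0.65 for the 24 members with an ETS match and -0.45 for the 43 without, and -0.42 for the 8 members with a YY1 match and -0.59 for the 59 without.

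Depth was 20299052 to 27214385 reads in genes per sample. All 76 members passed the filter on low values (at least 10 in at least 3 samples), as did 14987 genes in all. The lowest value of any member in any sample was 229.9 normalised reads, the highest 4069, and no member in any sample rested on fewer than 283 reads. Markers of oligodendrocytes, neurons, astrocytes, microglia, endothelium and choroid plexus were all above 0 in the table. The 10 oligodendrocyte markers summed to 11.0 to 23.1% of the reads at P18 and to 5.73 to 8.16% at P75, and Mbp, which encodes a main myelin protein, took much of the P18 reads.

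Averaged over the 12 samples, the members lay between 469 normalised reads (Mrps18b) and 3150.1 (Mrps33), with a median of 919. Per kilobase of transcript, the scale on which genes can be compared, the mean level ranged from 102 to 4394 with a median of 725. The highest were Mrps33 (4394 per kilobase), Mrpl20 (4376), Mrps21 (3402), Mrpl30 (2645) and Mrpl42 (2331). The lowest were Mrpl19 (102), Mrpl47 (151), Mrps35 (153), Mrpl1 (161) and Mrps5 (165). The 5 lowest are genes whose annotated transcripts are long, and a message with a shorter untranslated end than annotated would have a higher true level per kilobase.

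Over the 4 ages, with no length trend removed, most members had their highest mean at P18 or P75 and their lowest at 6 months. Of the members, 51 had their highest mean at P18 and 23 at P75, with 1 each at the later ages (Mrps18b at 6 months, Mrpl24 at 24 months). The lowest mean lay at 6 months in 61 members and at 24 months in 11, and at P75 in 3 and P18 in 1. The same counts over all tested genes were not made. Replicate 1 at 6 months alone held the lowest of all 12 values for 60 members. With a length trend removed, the median log2 fold change of the members from 6 to 24 months was 0.025 (coding length) or -0.024 (transcript length). A low point at 6 months below 24 months is thus not firm. In the moderated F test over the ages (limma), 74 of 76 members passed, against 77.4% of all genes tested. Mrpl24 and Mrps18b did not. The members together took 0.384, 0.350 and 0.427% of all normalised reads at P18 and 0.361, 0.414 and 0.417% at P75. They took 0.242, 0.250 and 0.285% at 6 months and 0.282, 0.281 and 0.292% at 24 months. The shares of P18 and P75 overlapped, and every sample of the later ages lay below every sample of the earlier ones. In means, P18 had 0.387% ± 0.039 (SD, n = 3) and P75 0.397% ± 0.031, while 6 months had 0.259% ± 0.023 and 24 months 0.285% ± 0.0061. With Mbp left out of the total, the means were 0.455, 0.421, 0.276 and 0.305% in order of age.

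**Figure D1:**
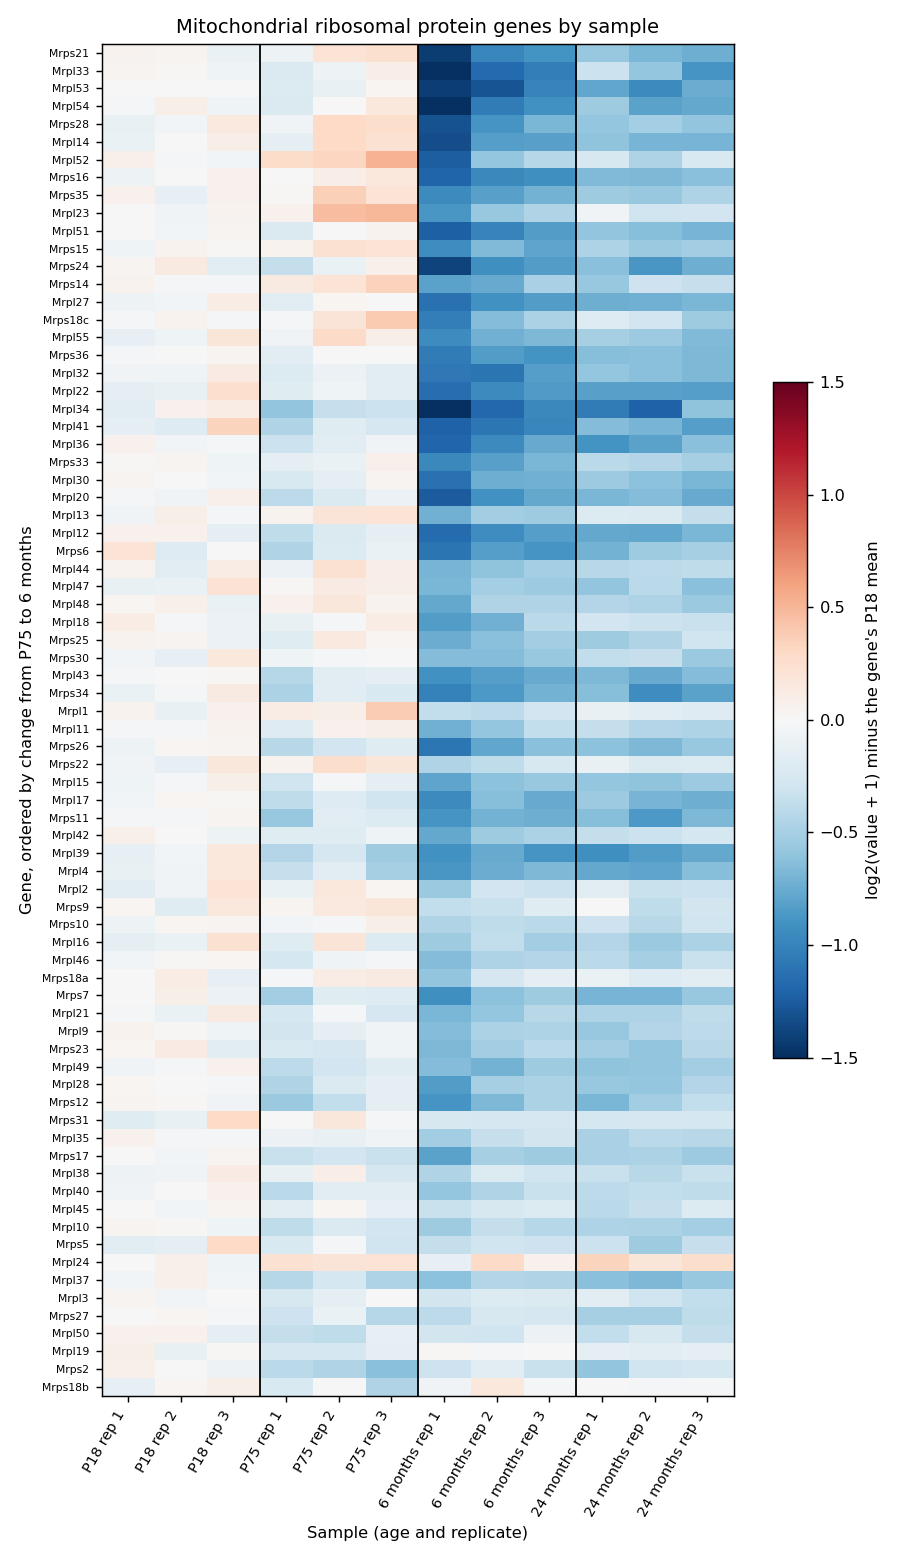
Each row is 1 of the 76 genes, ordered by its change from P75 to 6 months, and each column is 1 of the 12 samples. Colour gives log2(value + 1) minus the gene's mean at P18. Most rows turn blue at 6 months, replicate 1 of that age is the darkest column, and Mrpl24 stays at or above its P18 level in most samples.

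Within an age, samples also stood apart. Replicate 1 at 6 months held the lowest of the 3 values for 69 of 76 members and the lowest of all 12 for 60. Replicate 1 at P75 was the lowest of its age for 58 members. On the log2 scale, the median difference of the members from their P18 means was -0.82 in replicate 1 at 6 months, -0.62 and -0.53 in the other replicates, and -0.53, -0.51 and -0.51 at 24 months. At P75 it was -0.21, -0.049 and -0.037.

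From P18, when myelin is being formed, to P75, in the young adult, 20 members fell and 1 rose (limma, adjusted p under 0.05), against 18.7% of all genes that fell and 21.7% that rose, and 55 members did not pass. The median log2 fold change of the members was -0.10, and that of all tested genes was 0.017. Of 26 small subunit genes 8 fell, and of 49 large subunit genes 12 fell and 1 rose. The 3 samples of each age were free of overlap for 24 members that were lower and 6 that were higher, against 22.4% and 24.7% of all genes.

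Mrps2, a small subunit protein with a bacterial counterpart, had 845, 794 and 759 normalised reads at P18 and 601, 583 and 515 at P75. All 3 P75 values were below all P18 values, and the change was the largest fall of this comparison (log2 fold change -0.50, SE 0.10, adjusted p = 0.00102). It did not go lower later, with 646, 714 and 633 at 6 months and 529, 648 and 664 at 24 months. Mrpl37, a large subunit protein without a bacterial counterpart, went from 967, 1046 and 962 to 739, 826 and 721 (log2 fold change -0.38, SE 0.086, adjusted p = 0.00216), again without overlap. Mrpl39, also added in mitochondria, went from 1102, 1165 and 1339 to 885, 1002 and 825 (log2 fold change -0.41, SE 0.097, adjusted p = 0.003). In these 3 genes every P75 sample was lower than every P18 sample.

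Mrpl10, which carries the stalk of the large subunit on which translation factors dock, fell from 1389 ± 53.5 to 1136 ± 64.9 (log2 fold change -0.29, SE 0.079, adjusted p = 0.00767). Mrps17 fell from 977 ± 28.8 to 783 ± 14 with an adjusted p of 0.00791, and Mrpl49 from 1299 ± 53.1 to 1066 ± 76.5 with 0.0106 (both limma), and the call of Mrpl49 was lost without P75 replicate 1 (adjusted p = 0.0551). Mrpl34, among the shortest members, went from 784, 917 and 949 to 586, 695 and 704 (log2 fold change -0.42, SE 0.15, adjusted p = 0.0401), a call that was lost when any of 5 single samples was left out, with no filter on low values and with the GC trend removed. The gene that rose was Mrpl23, of the rim of the exit tunnel, from 1296, 1259.8 and 1356 to 1358, 1796 and 1846 (log2 fold change 0.34, SE 0.12, adjusted p = 0.0368). Its call was lost without P18 replicate 1 or 2 or P75 replicate 2 or 3. The count of 20 falls is not firm: it was 6 without P75 replicate 1, 10 without P18 replicate 2, 12 without P18 replicate 1 and 11 when the 2 ages were fitted alone. In the same step 7 of 10 oligodendrocyte markers fell (median log2 fold change -1.12), and their part in the result was not tested.

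From P75 to 6 months, 63 of the 76 members fell, 1 rose and 12 did not pass (limma, adjusted p under 0.05), where 25.4% of all tested genes fell and 27.1% rose. The median log2 fold change was -0.54 for the members and 0.0029 for all tested genes. Without overlap between the 3 samples of each age, 64 members were lower and 2 higher, against 30.6% and 31.7% of all genes. By subunit, 40 of 49 large subunit genes fell with a median of -0.55, and 22 of 26 small subunit genes with a median of -0.53. Of the 46 members with a bacterial counterpart 40 fell, and of the 29 without one 22 fell. With any single sample left out, 58 to 64 members fell. With the trend of expression on transcript length removed in each sample, 38 fell and 6 rose, as described further with the lengths of the genes.

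**Figure D2:**
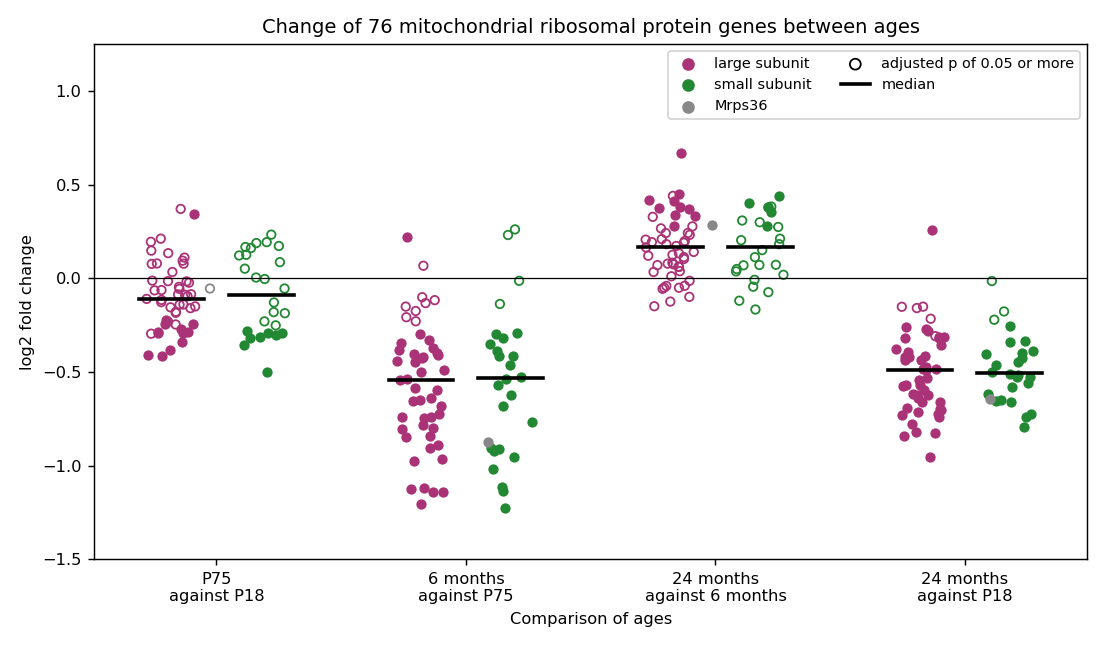
Each point is the log2 fold change of 1 gene in 1 of 4 comparisons of ages, by subunit, filled where the adjusted p was under 0.05, with the median of each subunit as a bar. The points of 6 months against P75 and of 24 months against P18 lie almost all below 0, with medians near -0.5 in both subunits.

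Among small subunit genes, Mrps21, whose bacterial counterpart takes part in the start of translation, had 1799.8, 2193 and 2247 normalised reads at P75 and 708, 960.4 and 1016 at 6 months. The lowest P75 value was far above the highest 6 month value, and this was the largest fall of all members (log2 fold change -1.23, SE 0.12, adjusted p = 1.01e-06). Mrps16, in which human variants cause a respiratory chain deficiency, had 1204, 1297 and 1342 at P75 and 525, 615 and 635 at 6 months (log2 fold change -1.12, SE 0.087, adjusted p = 1.27e-07), the lowest adjusted p of the members. At 6 months it thus had 0.462 of its P75 mean. Mrps15 went from 1323, 1484 and 1461 to 667, 806 and 732 (log2 fold change -0.95, SE 0.086, adjusted p = 4.74e-07), also without overlap. Mrps36, which current work places in the 2-oxoglutarate dehydrogenase complex and not in the ribosome, went from 1174, 1315 and 1319.9 to 634, 736 and 706 (log2 fold change -0.88, SE 0.082, adjusted p = 6.25e-07). With the trend on transcript length removed, that call was lost (-0.15, limma adjusted p = 0.117).

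Mrps22 and Mrps34, both added in mitochondria and both sites of variants in human mitochondrial disease, fell from 945 ± 70 to 656 ± 49.2 (limma adjusted p = 0.000251) and from 864 ± 93 to 581 ± 61.3 (adjusted p = 0.000393). The call of Mrps34 was lost with transcript length removed (log2 fold change -0.086, limma adjusted p = 0.455), and the value of Mrps22 was -0.22 there. Mrps12, of the decoding centre, had 684, 779.8 and 922 at P75 and 547, 634 and 729 at 6 months. These samples overlapped, and the call (log2 fold change -0.32, SE 0.12, adjusted p = 0.0351) was lost without P75 replicate 2 or 3 or without 6 months replicate 1 or 2. With transcript length removed, Mrps12 instead passed as higher (log2 fold change 0.25, limma adjusted p = 0.0478). Of the 3 relatives of bacterial S18, Mrps18c, of the small subunit, fell (log2 fold change -0.91, SE 0.13, adjusted p = 3.67e-05), as did Mrps18a, which sits in the large subunit (-0.40, SE 0.11, adjusted p = 0.00474). With transcript length removed, the call of Mrps18c was lost (-0.19, limma adjusted p = 0.0745) and Mrps18a passed as higher (0.22, adjusted p = 0.0267). Mrps18b had 414, 481 and 354 at P75 and 468, 542 and 478 at 6 months, values that overlapped (log2 fold change 0.26, SE 0.11, adjusted p = 0.0567). It passed as higher with transcript length removed (0.73, limma adjusted p = 8.91e-05), with coding length removed (0.39, 0.0071), with the GC trend removed (0.25, 0.0393), without P18 replicate 3 (0.26, 0.0435) and without P75 replicate 2 (0.37, 0.0126). The differences between these 3 genes were not tested.

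Among large subunit genes, Mrpl33, the shortest member, had 1251, 1388 and 1568 normalised reads at P75 and 482, 649 and 711 at 6 months (log2 fold change -1.20, SE 0.14, adjusted p = 5.14e-06). Mrpl53 had 1208, 1292 and 1425 and 524, 566 and 695 (log2 fold change -1.14, SE 0.10, adjusted p = 4.72e-07). Neither gene had samples that overlapped between these ages. Mrpl54, another subunit added in mitochondria, went from 849, 991 and 1103 to 345, 478 and 525 (log2 fold change -1.14, SE 0.14, adjusted p = 5.63e-06). Mrpl27, whose bacterial counterpart reaches into the peptidyl transferase centre, went from 1866, 2135 and 2105 to 964, 1115 and 1177 (log2 fold change -0.91, SE 0.090, adjusted p = 1.05e-06). All of these genes were at about 0.43 to 0.53 of their P75 mean at 6 months: the ratio was 0.438 for Mrpl33, 0.455 for Mrpl53, 0.458 for Mrpl54, 0.533 for Mrpl27 and 0.43 for Mrps21.

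Mrpl12, the stalk protein that factors dock on and that also binds the mitochondrial RNA polymerase Polrmt, had 2517, 2808 and 2978 at P75 and 1469.7, 1717 and 1842 at 6 months (log2 fold change -0.73, SE 0.097, adjusted p = 1.53e-05). Its stalk partner Mrpl10 had 1136 ± 64.9 and 1023 ± 62.3 and did not pass (limma adjusted p = 0.118), and Mrpl11, at the base of the stalk, fell from 1534 ± 160.2 to 1058 ± 131 (adjusted p = 0.000255). Mrpl32, which the m-AAA protease trims before it joins the ribosome, fell from 890.2 ± 36.6 to 496 ± 53.4 (2.33e-06). Mrpl44, a protein with the fold of RNase III, fell from 1090.0 ± 118 to 678 ± 42.5 (2.7e-05), and Mrpl41 from 1951 ± 181 to 1121 ± 90.6 (5.08e-05), a call that was lost with transcript length removed (log2 fold change -0.20, adjusted p = 0.151). Mrps30, a large subunit protein despite its name, fell from 924 ± 22.2 to 611 ± 21.6 (4.69e-05). Mrpl45, which ties the exit of the ribosome to the inner membrane, had 945, 1087 and 981 at P75 and 841, 902 and 922 at 6 months, with no overlap but no call (log2 fold change -0.17, SE 0.085, adjusted p = 0.0932). Mrpl3, of the body of the large subunit, did not pass either, with 979 ± 79.7 and 910.4 ± 23.2 (log2 fold change -0.10, SE 0.084, adjusted p = 0.325). With transcript length removed both passed as lower (-0.22 each, limma adjusted p = 0.0297 for Mrpl45 and 0.0387 for Mrpl3), as did Mrpl45 under quantile normalisation (-0.20, adjusted p = 0.0431).

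The gene that rose was Mrpl19, from 456, 452 and 489.7 to 552, 533 and 543 (log2 fold change 0.22, SE 0.084, adjusted p = 0.0363). All 3 values at 6 months lay above all 3 at P75, and they lay within the range of P18 (578, 504 and 552). The call was lost when any of 6 samples was left out, in the fit of the 2 ages alone, under quantile normalisation and with transcript length removed (log2 fold change 0.050, limma adjusted p = 0.642). An exon of Mrpl19 overlaps one of Gcfc2 on the opposite strand, and the strand setting of the counting is not given in the sources used here. Exons of 17 members overlap those of another protein-coding gene (GENCODE M21), among them Mrpl27 (Eme1), Mrpl43 (Peo1, now Twnk), Mrpl49 (Syvn1), Mrpl53 (a gene model on the same strand) and Mrps30. In 2 of the 17 the partner lies on the same strand. For the others it is not known whether reads of the partners were told apart. Of the 59 members without such an overlap, 48 fell and 0 rose from P75 to 6 months, with 3 of 59 log2 fold changes above 0.

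**Figure D3:**
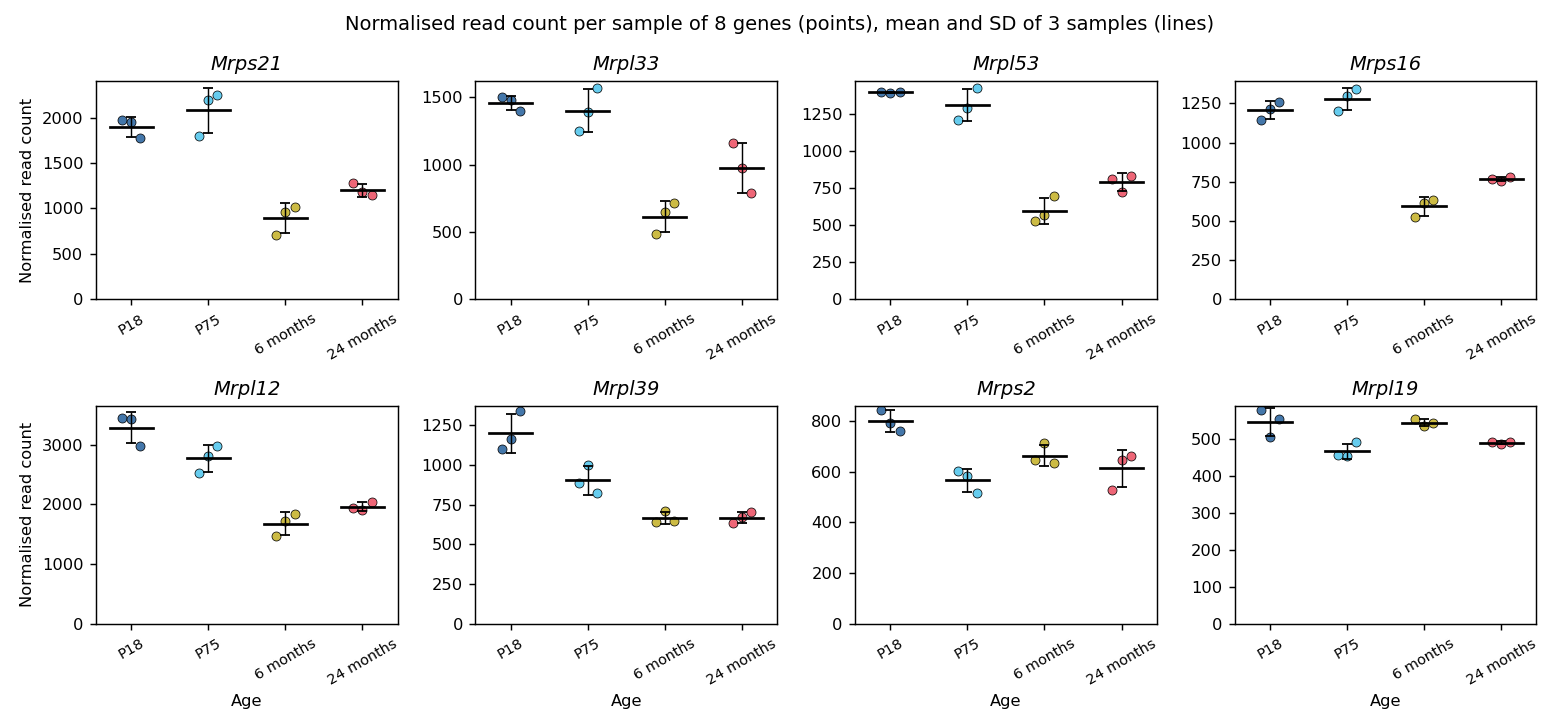
Normalised read count of 8 members in each sample, on linear axes that start at 0, with the mean and SD of 3 samples per age. In Mrps21, Mrpl33, Mrpl53 and Mrps16 the 6 month mean lies at under 0.5 of the P75 mean. Mrpl39 and Mrps2 were lower already at P75, and Mrpl19 stays between 452 and 578 in all samples.

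From 6 to 24 months, 17 members rose and 0 fell (limma), against 10.8% of all genes that rose and 8.34% that fell, and 59 members did not pass. At an adjusted p under 0.05, edgeR and DESeq2 on the recovered reads each gave 20 that rose and 0 that fell. Of all genes, 12.7% rose and 8.51% fell in edgeR, and 12.6% and 9.75% in DESeq2. At an unadjusted p under 0.05, limma gave 29 members that were higher and 0 that were lower, against 19.7% and 14.9% of all genes. The median log2 fold change was 0.17 for the members and 0.030 for all tested genes, and the samples were free of overlap for 30 members that were higher and 1 that was lower, against 23.2% and 19.9% of all genes. This comparison shares the 3 samples of 6 months with that of 6 months against P75, where they enter with the opposite sign, so low values in them alone would give a fall and then a rise.

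Mrpl33 had the largest rise, from 482, 649 and 711 at 6 months to 1162, 977 and 791 at 24 months (log2 fold change 0.67, SE 0.14, adjusted p = 0.00592). All 3 later values were above all 3 earlier ones, and all were below those of P18 (1501, 1479 and 1398). Mrps16 went from 525, 615 and 635 to 764, 757 and 780.3 (log2 fold change 0.38, SE 0.087, adjusted p = 0.00875). Mrps33, the most abundant member, went from 1969, 2198 and 2389 to 2904, 2855 and 2742 (log2 fold change 0.38, SE 0.088, adjusted p = 0.0092). Both were free of overlap between the ages. Mrpl32 went from 468, 462 and 558 to 663, 639 and 619 (log2 fold change 0.37, SE 0.092, adjusted p = 0.0119), and Mrpl53 and Mrpl51 had log2 fold changes of 0.41 and 0.38 (limma adjusted p = 0.0124 and 0.014). Mrpl54, Mrps21 and Mrpl23 had 0.45, 0.44 and 0.42 (adjusted p = 0.0311, 0.0202 and 0.0279). The count rests on few samples: without 6 months replicate 1, the lowest sample for most members, 2 members rose (Mrpl33 and Mrps16), and without 6 months replicate 2, 24 months replicate 1 or 24 months replicate 2 the numbers were 8, 6 and 5.

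Between the ends of the series, 24 months against P18, 67 members fell, 1 rose and 8 did not pass (limma), against 30.5% of all genes that fell and 32% that rose. The median log2 fold change was -0.51 for the members and -0.0051 for all tested genes. Free of overlap were 71 members that were lower and 1 that was higher, against 32.8% and 33.2% of all genes. The fall held for 43 of 49 large subunit genes and 23 of 26 small subunit genes, and for 52 of the 59 members without exon overlap, of which 0 rose. Of the 10 oligodendrocyte markers 6 fell between these ages (median log2 fold change -1.21) and of 8 microglia markers 7 rose (median 0.92), and their part in the result was not tested.

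Mrpl39 had 1102, 1165 and 1339 normalised reads at P18 and 633, 671 and 704 at 24 months (log2 fold change -0.84, SE 0.097, adjusted p = 1.29e-06), the lowest adjusted p. Its 6 month values (639, 707 and 647) overlapped those of 24 months, so its decline was spread over both earlier steps. Mrpl34 had the largest fall, from 784, 917 and 949 to 424, 381 and 579 (log2 fold change -0.96, SE 0.15, adjusted p = 4.74e-05). Mrpl53 had 1396, 1391 and 1397 at P18 and 812, 721 and 833 at 24 months (log2 fold change -0.82, SE 0.10, adjusted p = 3.25e-06). Mrpl22, which lines the exit tunnel, went from 702, 714 and 921 to 441, 439 and 434 (log2 fold change -0.82, SE 0.11, adjusted p = 6.29e-06). In all of these genes each 24 month sample lay below each P18 sample.

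Mrpl12 had 3438, 3436 and 2979 at P18 and 1931, 1908 and 2042 at 24 months (log2 fold change -0.74, SE 0.097, adjusted p = 5.4e-06). Mrpl27, Mrps36 and Mrpl43 had log2 fold changes of -0.71, -0.65 and -0.69 (limma adjusted p = 3.7e-06, 3.84e-06 and 4.07e-06). Peo1, whose exons overlap those of Mrpl43, had 256 ± 28.3 at P18 and 213 ± 7.83 at 24 months and did not pass (0.0759). Mrpl24 was the gene that rose, from 732, 775 and 708 to 932, 836 and 886 (log2 fold change 0.26, SE 0.096, adjusted p = 0.0271). That call was lost without any of 4 samples and with the GC trend removed, and an exon of the gene overlaps one of Rrnad1 on the opposite strand. The 8 members that did not pass were Mrpl1, Mrpl19, Mrpl23, Mrpl52, Mrps9, Mrps18a, Mrps18b and Mrps22. Of these, Mrps22 had 844 ± 92.1 at P18 and 744 ± 27.9 at 24 months, and passed as lower with the GC trend removed (log2 fold change -0.28, limma adjusted p = 0.019), and Mrps18b had 486 ± 36 and 479.7 ± 5.86.

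The messages of the members are short: the median coding length was 582 bases (195 to 1326), against 1410 over all tested genes with an annotated length. The size of the change at 6 months went with this length. Of the 22 members of up to 450 coding bases all 22 fell from P75 to 6 months, with a median log2 fold change of -0.90, and of the 874 other genes of that length 64.2% fell, with a median of -0.59. Of 18 members over 450 and up to 600 bases 17 fell (median -0.56, against -0.30 for other genes). Of 21 members over 600 and up to 900 bases 15 fell (median -0.40, against -0.13). Of the 15 members over 900 bases 9 fell, with a median of -0.41, where 17.7% of the 10723 other genes fell and their median was 0.098. In each length class the median of the members was thus below that of the other genes, as a description with no test. The longest class has no upper limit. Its members end at 1326 bases, while 5167 other genes had over 1800, so the lengths were not alike there.

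Across the 76 members, Spearman's rho between coding length and the log2 fold change was 0.59 for 6 months against P75, and across 14392 other genes it was 0.27. For 24 months against 6 months it was -0.67 for the members and -0.24 for other genes. These comparisons share the samples of 6 months with opposite sign, so a trend with length in those samples alone gives coefficients of opposite sign. For 24 months against P18 it was 0.39 and 0.22, and for P75 against P18 it was -0.051 and 0.13. Genes in 1 library share its depth and its fragment lengths, so they are not independent points. By length, those that rose from 6 to 24 months were 11 of the 22 members of up to 450 bases, 5 of 18, 1 of 21 and 0 of 15 in the longer classes. Among other genes 31.2% rose in the shortest class and 8.21% in the longest.

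**Figure D4:**
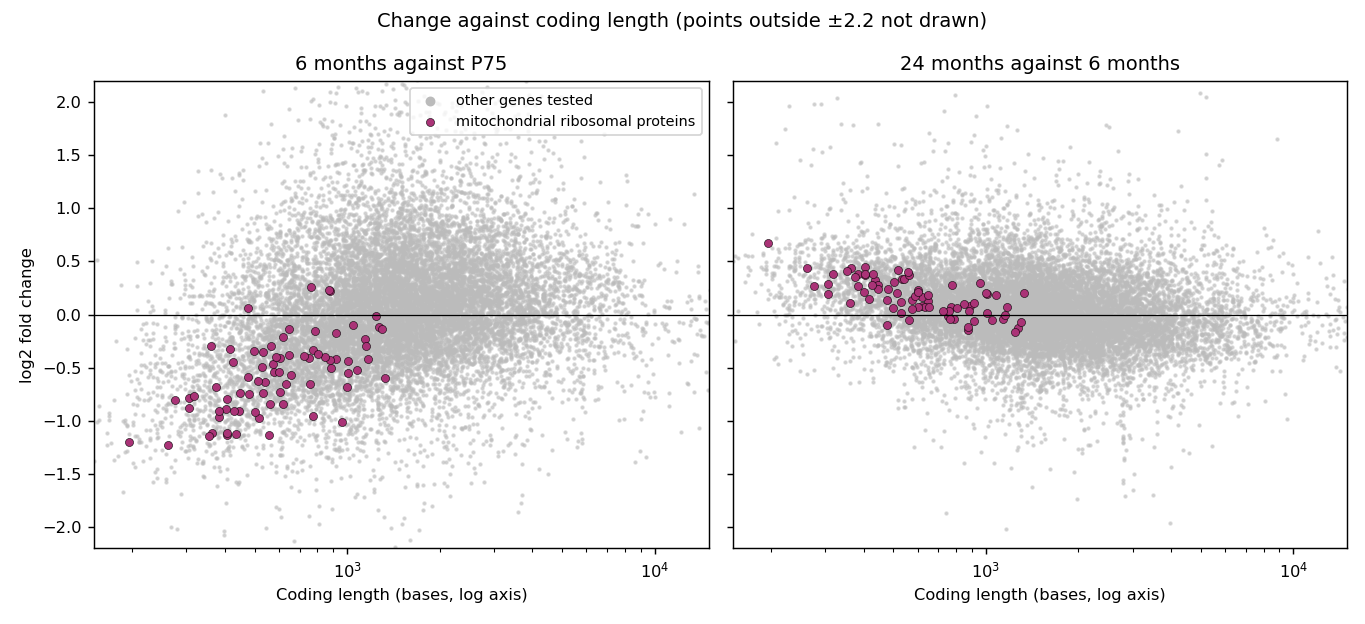
Each point is a gene, with its coding length on a log axis and its log2 fold change for 6 months against P75 (left) and 24 months against 6 months (right). The shortest members lie lowest on the left and highest on the right, and most members lie below the bulk of other genes of their length on the left.

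The other short genes moved in the same samples. The 1713 other genes of up to 600 coding bases had a median of -0.66, -0.48 and -0.42 relative to their P18 mean in the 3 samples of 6 months, and -0.34, -0.34 and -0.38 at 24 months. The 5167 other genes over 1800 bases had 0.26, 0.20 and 0.19 at 6 months and 0.15, 0.15 and 0.16 at 24 months. When the trend of expression on coding length was removed in each sample, 48 members fell and 5 rose from P75 to 6 months with a median of -0.32, where 24.9% of all genes fell and 26.2% rose. With transcript length in its place it was 38 and 6 with a median of -0.21, against 23.8% and 25.3% of all genes. Of the 63 members that fell in the fit without a length trend, 47 also fell with coding length removed and 35 with transcript length removed. The log2 fold changes of the leading members were smaller with transcript length removed: -0.29 for Mrps21, -0.30 for Mrpl33, -0.47 for Mrpl53, -0.38 for Mrpl54, -0.48 for Mrps15, -0.30 for Mrpl27 and -0.48 for Mrpl12, all with a limma adjusted p under 0.05. Mrps16 and Mrpl32 had -1.18 and -0.96 there.

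For 24 months against P18, 55 members fell and 1 rose with coding length removed, against 34.7% and 29.3% of all genes. With transcript length removed it was 57 and 1, against 34% and 29.1%, and the median of the members was -0.35 in each. Mrpl39 had -0.89 with transcript length removed, and Mrpl34, Mrpl53, Mrpl22, Mrpl27 and Mrps36 had -0.60, -0.49, -0.50, -0.40 and -0.30. For 24 months against 6 months, 1 member rose (Mrpl33) and 1 fell with coding length removed (median 0.025), against 8.54% and 10.1% of all genes. With transcript length removed 4 rose and 0 fell (median -0.024), against 7.92% and 8.65%, and 3 of the 4 (Mrps16, Mrpl32 and Mrpl51) were among the 17 that rose without it. Mrps21, Mrps33, Mrpl23, Mrpl53 and Mrpl54 did not pass in either fit.

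**Figure D5:**
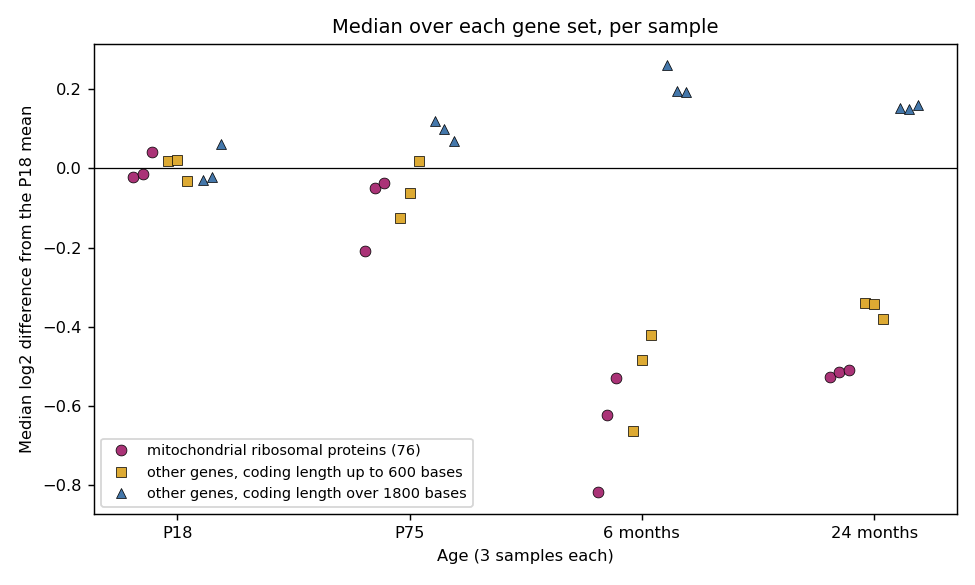
Median log2 difference from the P18 mean in each of the 12 samples, for the 76 members, for other genes of up to 600 coding bases and for other genes over 1800 coding bases. At 6 and 24 months the members lie below the other short genes in every sample, and the long genes lie above 0.

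Subunits of the same ribosome whose symbols do not start with Mrpl or Mrps were read beside those chosen by name. They come from the same samples, so they are no independent check, and their values with a length trend removed are not given. Of 7 such genes 5 fell and 0 rose from P75 to 6 months, against 25.4% and 27.1% of all genes. Their median log2 fold change was -0.67. From P18 to 24 months 5 fell and 0 rose, against 30.5% and 32% of all genes. Aurkaip1, of the small subunit, had 3002, 3763 and 3441 at P75 and 1442, 1738 and 1880.04 at 6 months (log2 fold change -1.01, SE 0.10, adjusted p = 1.18e-06). Gadd45gip1, of the large subunit, had 1462, 1740.3 and 1733 and 623, 764 and 854 (log2 fold change -1.15, SE 0.12, adjusted p = 2.39e-06). Both pairs of ages were free of overlap. Dap3, a longer small subunit gene, had 2097 ± 194 and 1919 ± 50.9 and did not pass (limma adjusted p = 0.274), but fell from P18 to 24 months (log2 fold change -0.41, SE 0.093, adjusted p = 0.00104).

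Translation in mitochondria also needs factors and assembly proteins that are not part of the ribosome. From P18 to 24 months 3 of 13 mitochondrial translation factors fell and 0 rose, against 30.5% and 32% of all genes. From P75 to 6 months 5 of them fell and 4 rose, with a median of -0.086, against 25.4% and 27.1% of all genes. Tufm, the elongation factor that brings tRNAs, rose from 888, 1032 and 845 to 1269, 1318 and 1365 (log2 fold change 0.52, SE 0.097, adjusted p = 0.00033), and Gfm1, the translocation factor, from 736 ± 33.6 to 1032 ± 45.7 (limma adjusted p = 0.000141). Tsfm, which recharges Tufm, fell from 549, 662 and 593 to 322, 393 and 408 (log2 fold change -0.69, SE 0.11, adjusted p = 9.91e-05). Taco1 had the lowest adjusted p of the translation factors in this step, and its values are not given here. Of 21 assembly and rRNA modification genes 5 fell and 2 rose in this step. The m-AAA protease subunits Afg3l2 and Spg7, which process Mrpl32, were the 2 that rose, from 953 ± 89.6 to 1616 ± 108 and from 846 ± 22.1 to 1146 ± 136 (adjusted p = 2.64e-05 and 0.000929), while Mrpl32 fell. Rbfa, a small subunit assembly factor, fell from 724 ± 36.7 at P18 to 420.1 ± 23 at 24 months (log2 fold change -0.78, SE 0.088, adjusted p = 9.67e-07). Values with a length trend removed are not given for the factors and assembly genes. From P75 to 6 months, 32.1% of the 10723 non-member genes over 900 coding bases rose and 17.7% fell (median log2 fold change 0.098).

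Of 12 genes of mitochondrial transcription and RNA processing 7 fell and 2 rose from P75 to 6 months, against 25.4% and 27.1% of all genes. Polrmt, the polymerase that Mrpl12 binds, had 412 ± 70.7 at P75 and 458 ± 38.9 at 6 months and did not pass (limma adjusted p = 0.35). Tfam, which packages mitochondrial DNA and starts its transcription, had 1066 ± 77.4 and 883 ± 42.6 (adjusted p = 0.0131). Of 8 genes of mitochondrial DNA maintenance 3 fell and 0 rose. Of 27 genes of mitochondrial import and membranes, which include Vdac1, Phb2 and Immt, 15 fell and 8 rose. Of 17 citrate cycle genes 5 fell and 4 rose from P75 to 6 months. The import and membrane genes and the citrate cycle genes fell from P18 to 24 months in 19 of 27 and 10 of 17 cases, with 2 and 0 that rose. Of all genes, 30.5% fell and 32% rose between these ages. Among 9 regulators of mitochondrial biogenesis 3 fell and 1 rose from P75 to 6 months. Ppargc1a and Pprc1 passed, 1 of them as higher, and their values are not given here. Values are given for Yy1, Nrf1 and Gabpa, picked as the factors of the 3 motifs searched above. They do not stand for the list, and their part in the changes of the members was not tested. Yy1 had 1002, 1063 and 1169.6 at P75 and 708, 718 and 805 at 6 months (log2 fold change -0.53, SE 0.10, adjusted p = 0.000317), Nrf1 had 360.3 ± 17.4 and 293 ± 17.5 (-0.30, SE 0.094, adjusted p = 0.0134) and Gabpa 666 ± 53.9 and 562 ± 28.3 (-0.24, SE 0.10, adjusted p = 0.0513). Changes of short subunits and long factors were not compared by a test.

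The proteins of the cytosolic ribosome are also short. Of 78 tested, 56 rose and 0 fell from P18 to P75 (median log2 fold change 0.64), against 21.7% and 18.7% of all genes. In that step 20 members of the mitochondrial ribosome fell and 1 rose. From P75 to 6 months 74 of the 78 fell and 1 rose with a median of -0.88, against 25.4% and 27.1% of all genes. From 6 to 24 months 15 rose and 0 fell, against 10.8% and 8.34%. From P18 to 24 months 20 rose and 11 fell with a median of 0.16, where 32% and 30.5% of all genes did so. Of the members 1 rose and 67 fell, with a median of -0.51. Values of the cytosolic set with a length trend removed are not given. Whether each gene pair differs was not tested.

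Marker genes of cell types also differed between the ages. Of all tested genes, 27.1% rose and 25.4% fell from P75 to 6 months, and 32% and 30.5% from P18 to 24 months. From P75 to 6 months 6 of 10 neuron markers rose and 2 fell, of 10 oligodendrocyte markers 1 rose and 0 fell, of 8 microglia markers 4 rose and 1 fell, and of 5 endothelial markers 3 rose and 1 fell (median log2 fold change 0.67). From P18 to 24 months 3 neuron markers rose and 4 fell, and 2 endothelial markers rose and 1 fell. The neuron markers summed to 0.847 to 0.971% of reads at P75 and 0.758 to 0.866% at 6 months, and the oligodendrocyte markers to 5.73 to 8.16% and 6.31 to 9.87%, and to 6.43 to 8.68% at 24 months. For astrocyte markers (7 genes) the ranges were 0.455 to 0.478% and 0.436 to 0.496%. Microglia markers (8 genes) went from 0.0276 to 0.0288% at P75 to 0.0324 to 0.0387% at 6 months and 0.0441 to 0.0584% at 24 months. Choroid plexus markers (4 genes) went from 0.0467 to 0.0637% at P18 to 0.182 to 0.204% at 24 months, and endothelial markers summed to between 0.00173 and 0.00270% in all samples. Their part in the results on the ribosomal genes was not tested. In bulk samples, fewer cells of a type and less RNA per cell cannot be told apart.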

How the data were processed

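RNA was sequenced from 12 samples, 3 at each of 4 ages. The authors deposited 1 signal value per gene and sample, a read count divided by a size factor. The submitters' processing notes name TopHat, HTSeq, DESeq and the build mm9, without versions. In each column 100% of values were whole multiples of 1 step (tolerance 0.0061), so whole reads could be recovered. Genes with a value of at least 10 in at least 3 samples (14987) were fitted on log2(value + 1) with limma 3.58.1 (R 4.3.3, mean-variance trend), 4 ages in 1 fit. P-values are two-sided and adjusted by Benjamini-Hochberg over all genes tested, with a threshold of 0.05. Standard errors are those of limma. The script was tested on simulated data. edgeR 4.0.16 and DESeq2 1.42.0 on the recovered reads were alternatives, beside other pseudocounts, filters, scalings, length and GC trends, and each sample left out.

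The members and lists were chosen with earlier results of these data known. Genes named are, per comparison, the up to 6 members with the lowest adjusted p and the up to 4 with the largest change in each direction. Beside them are the 5 highest and 5 lowest per kilobase and a set of members of known role. From the lists come up to 4 genes with the lowest adjusted p per comparison, not all of which are named. Chosen after their values were seen were Nrf1, Gabpa, Polrmt, Tfam, Peo1 and Dap3, and Tufm for P75 to 6 months. Transcript lengths and GC shares are medians over the basic coding transcripts of GENCODE M21 (GRCm38). The coding length of a gene is that of the longest coding sequence among them. How the counting treated reads that also match a pseudogene is not given in the sources used here.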

Additional observations from a re-analysis of the deposited data

How the results depend on the processing

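The falls from P75 to 6 months and from P18 to 24 months kept their direction in every alternative, and their counts of members moved by over 1.5 times only with transcript length, where 38 fell from P75 to 6 months. Length and GC trends were added after seeing the data, except transcript length. For P75 against P18, 2 members rose under quantile normalisation, DESeq2, the fit of the 2 ages alone and the GC trend, 4 with transcript length and 6 with coding length removed. In that comparison 11 fell in the fit of the 2 ages and 13 with coding length. From P75 to 6 months 0 rose under quantile normalisation and in the fit of the 2 ages, 6 with transcript length, 5 with coding length and 3 with the GC trend. The medians were -0.21 (transcript length) and -0.32 (coding length). From 6 to 24 months 4 and 1 rose, 0 and 1 fell, and the medians were -0.024 and 0.025, so the direction turned over with transcript length. From P18 to 24 months 0 rose with the GC trend, and the medians were -0.35 and -0.35 with the length trends and -0.55 with the GC trend. The summed share was 0.455% at P18 and 0.305% at 24 months without Mbp, and 0.273% at 24 months without Mrps33.

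Among the members named for a comparison, some turned direction with transcript length removed, and other members were not followed singly. From P75 to 6 months these were Mrpl10 (0.14), Mrps12 (0.25) and Mrps18a (0.22). Of them, Mrps12 and Mrps18a passed as higher (limma adjusted p = 0.0478 and 0.0267). From P18 to 24 months they were Mrps18a (0.16), Mrps18b (0.24) and Mrps18c (0.011). With coding length removed Mrps12 had 0.12 in the first, and Mrps18a 0.035 and Mrps18b 0.081 in the second. With a sample left out, Mrps18b ran from -0.076 to 0.029 from P18 to 24 months, above 0 without P18 replicate 2 (0.0014) or P18 replicate 3 (0.029). Over all alternatives for named members, 1530 values kept direction and side of the threshold, 75 lost the call, 9 gained it and 11 changed direction.

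With each sample left out in turn, 0 to 2 members rose and 6 to 22 fell from P18 to P75 (median -0.13 to -0.047), and 0 to 2 rose and 58 to 64 fell from P75 to 6 months (-0.63 to -0.49). Between 2 and 22 rose and 0 fell from 6 to 24 months (0.080 to 0.23), and 0 to 1 rose and 63 to 67 fell from P18 to 24 months (-0.51 to -0.49). The F test passed 71 to 74. The ranges of the summed share, in order of age, were 0.367 to 0.406%, 0.388 to 0.415%, 0.246 to 0.268% and 0.282 to 0.287%.

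The labels do not say whether the replicate numbers pair the samples. Over 18 pairs with the same number the correlation of deviations ran from -0.18 to 0.16, with 3 above 0.1. Over 36 pairs with other numbers it ran from -0.15 to 0.19, with 4 above 0.1. Between P75 and 6 months the same-number pairs had 0.15, 0.093 and 0.16, and the others -0.13 to -0.028. Between 6 and 24 months the same-number pairs had -0.18, -0.058 and -0.062. Deviations from means of 3 samples cannot settle whether a pairing exists. With the replicate block, 1 member rose and 19 fell (P75 against P18), 1 and 63 (6 months against P75), 16 and 0 (24 months against 6 months) and 1 and 66 (24 months against P18), and 73 passed the F test. Every member rested on at least 283 reads per sample. Counting error was not set against the spread between samples.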
